A study of Homo sapiens with 6 samples.

Results

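The 10 genes described here encode heterogeneous nuclear ribonucleoproteins (hnRNPs): HNRNPA1, HNRNPA2B1, HNRNPC, HNRNPD, HNRNPF, HNRNPH1, HNRNPK, HNRNPL, HNRNPM and HNRNPU. They were chosen by name from 24220 genes and loci with reads. No cut on measured values was used, but earlier results of these data were known. HBEC3kt is a line of human bronchial epithelial cells immortalised in culture, and its poly(A) RNA was copied to full-length cDNA and read on a nanopore sequencer, so that a read runs through most splice sites of a transcript. The 3 S34F libraries came from cells labelled with the S34F mutation of U2AF1, which replaces a serine by phenylalanine in the small subunit of the splicing factor U2AF, and the 3 WT libraries from cells labelled wild type. In each genotype, replicate 1 was isolate 1 and replicate 2 was isolate 2, in libraries marked B1, and replicate 3 was isolate 2 again, in a library marked B2. The labels do not explain the marks B1 and B2 or the origin of the isolates. For genes and isoforms, the p-values therefore measure the spread between 6 libraries from 2 isolates per genotype. For splicing choices and 3′ ends, they use a spread shared by choices of like abundance, not the own spread of each choice.

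hnRNPs are abundant nuclear proteins that bind nascent RNA through RNA recognition motifs, KH domains or other RNA-binding parts. They package pre-mRNA, block or help the use of splice sites, and take part in export, stability and translation of mRNA. Many of their own transcripts are alternatively spliced, and several hnRNPs are known to act on their own pre-mRNA. U2AF marks the 3′ end of introns, its small subunit contacting the AG there, and the comparison asks how the hnRNP transcripts differ between cells with and without the mutated subunit.

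The alternative stretches that set apart the main transcripts of these genes are shown here because the results on splicing turn on them, and they were picked after their values were seen. Positions are those of the deposited isoform models in hg19. The letters were read from GENCODE transcripts by transcript ID and exon lengths, or for HNRNPM by exon lengths alone. The alternative stretch is in capitals and its neighbours in the longer mRNA are in lower case. The 36-base exon of HNRNPA2B1 (chr7:26237451-26237486, minus strand) adds 12 codons near the start of the protein. The 39 bases between 2 alternative 5′ splice sites of HNRNPC (chr14:21699117-21699155, minus strand) add 13 codons and separate the protein forms C1 and C2.
HNRNPA2B1 36-base exon: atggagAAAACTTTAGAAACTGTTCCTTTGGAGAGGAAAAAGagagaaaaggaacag
HNRNPC 39-base stretch: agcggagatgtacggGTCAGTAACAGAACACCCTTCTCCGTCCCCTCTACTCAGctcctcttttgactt
HNRNPD has a 57-base exon of 19 codons (chr4:83292681-83292737, minus strand) and a 147-base exon of 49 codons (chr4:83277690-83277836), whose combinations give the known protein forms of the gene. HNRNPM has 117 bases of 39 codons (chr19:8530247-8530363, plus strand), which are spliced out as an intron in part of the reads, and a 54-base exon of 18 codons (chr19:8548042-8548095).
HNRNPD 57-base exon: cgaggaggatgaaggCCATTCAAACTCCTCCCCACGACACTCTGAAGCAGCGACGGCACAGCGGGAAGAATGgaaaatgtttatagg
HNRNPD 147-base exon: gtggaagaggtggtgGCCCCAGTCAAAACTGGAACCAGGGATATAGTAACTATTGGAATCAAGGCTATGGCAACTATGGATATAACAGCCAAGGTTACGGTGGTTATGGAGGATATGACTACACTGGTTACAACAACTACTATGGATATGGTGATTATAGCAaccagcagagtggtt
HNRNPM 117-base stretch: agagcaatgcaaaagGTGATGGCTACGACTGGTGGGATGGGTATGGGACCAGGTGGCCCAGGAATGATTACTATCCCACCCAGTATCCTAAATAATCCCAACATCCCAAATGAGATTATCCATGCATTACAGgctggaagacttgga
HNRNPM 54-base exon: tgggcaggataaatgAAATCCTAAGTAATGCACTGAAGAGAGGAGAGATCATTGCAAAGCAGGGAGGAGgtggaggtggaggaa
All 6 of these stretches lie in annotated coding sequence and have lengths that are multiples of 3. In HNRNPK, 2 alternative 3′ splice sites lie 60 bases apart (chr9:86584296-86584355, minus strand). The inner site is shown with 15 bases on each side and its last 3 intron bases, TAG, in capitals.
HNRNPK inner 3′ splice site: ttttcttttttaTAGtgtgaagcagtattc

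Library totals ranged from 451540 to 1014868 reads in S34F cells and from 1286512 to 1720292 in WT cells, so every S34F library was shallower than every WT library. Airway basal markers, which include the keratin gene KRT5 and the transcription factor gene TP63, had reads for 7 of 7 genes, with summed levels of 3516 to 6823 CPM in S34F and 2500 to 3981 CPM in WT libraries. CPM scales the reads of each library to a common total of tested genes, adjusted by TMM factors as in the fit. The sums hide markers that differed between B1 and B2. KRT14 measured 5251, 3717 and 1590 CPM in S34F replicates 1, 2 and 3. In WT replicates 1, 2 and 3 it measured 3415, 2084 and 1146 CPM. CDH1 went the other way, with 44.4, 76.5 and 862 CPM in S34F replicates 1, 2 and 3. In WT replicates 1, 2 and 3 it measured 51.8, 37.3 and 965 CPM. Of 13 markers of ciliated, secretory, leukocyte, endothelial and fibroblast cells, 12 were at 0 and CD14 alone had reads, with at most 1.64 CPM in S34F and 5.09 CPM in WT libraries. U2AF1 itself measured 535, 418 and 242 CPM in S34F replicates 1, 2 and 3, against 499.9, 569 and 303 CPM in WT replicates 1, 2 and 3. Its log2 fold change was -0.22 (95% interval -0.82 to 0.39, edgeR adjusted p = 0.764), and counts per isoform cannot check which allele was read.

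None of the 10 hnRNP genes was called at gene level in S34F against WT cells, at an adjusted p of 0.05 over 7033 tested genes and loci. The share of all tested genes that was called was 3.24%. DESeq2 and limma-voom also called 0 of 10. Unadjusted, 3 of 10 had p under 0.05 in edgeR, beside 17.0% of all tested genes. The fitted log2 fold change was above 0 for 10 of 10 genes, with a median of 0.27, beside 51.6% of all tested genes and a median of 0.02. Without the B1/B2 term 10 of 10 were also above 0, and within the B1 libraries alone 9 of 10. Leaving out each library in turn gave 7 to 9 of 10, with 7 without WT replicate 1 and 8 without S34F replicate 2. With no filter on low counts the scaling moved the median of the same 7033 genes by -0.18, to -0.16, and 6 of the 10 genes were above 0. The 3 S34F and 3 WT values did not overlap for 1 of the 10 genes, HNRNPA1, beside 13.1% of all tested genes. On CPM scaled over all genes in place of the tested ones, they overlapped for each of the 10. On that scaling 4 of the 10 had the lower mean CPM in S34F. With the libraries of isolate 2 summed, so that 2 samples stood against 2, none of 8614 genes was called by edgeR and 287 had an unadjusted p under 0.05, 0 of them among the 10. In bulk RNA, a smaller number of cells of a type and less RNA per cell cannot be told apart.

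The A and B type proteins, which have paired RNA recognition motifs and a glycine-rich tail and act on splice site choice, gave the highest and the third highest of the 10 estimates. HNRNPA1 measured 388, 675 and 579 CPM in S34F replicates 1, 2 and 3, against 254, 265 and 352 CPM in WT replicates 1, 2 and 3. All S34F libraries lay above all WT libraries, while on the scaling over all genes S34F replicate 1, at 339 CPM, lay below WT replicate 3, at 347 CPM. The log2 fold change was 0.93 (SE 0.30, 95% interval 0.28 to 1.58, edgeR adjusted p = 0.128), and 1.02 in the B1 libraries alone. With isolate 2 summed it was 0.80 with an SE of 0.50. HNRNPA2B1 measured 156, 327 and 287 CPM in S34F replicates 1, 2 and 3, against 130.5, 171 and 180.2 CPM in WT replicates 1, 2 and 3. Replicate 1 was the lowest library in both genotypes. The log2 fold change was 0.67 (SE 0.31, 95% interval 0.02 to 1.33, edgeR adjusted p = 0.278), and 0.67 also in the B1 libraries alone. With isolate 2 summed it was 0.56 with an SE of 0.51. Without S34F replicate 1, HNRNPA1 (log2 fold change 1.09, edgeR adjusted p = 0.0138) and HNRNPA2B1 (0.91, edgeR adjusted p = 0.0408) passed the threshold, as 2 of 10 genes beside 5.91% of 8784 genes tested. The S34F libraries left were then both of isolate 2, so these p-values hold no spread between S34F isolates. Over all settings tried, the adjusted p ran from 0.0138 to 1 for HNRNPA1 and from 0.0408 to 1 for HNRNPA2B1, and without S34F replicate 2 the log2 fold change of HNRNPA2B1 was 0.33. HNRNPA1 has near-identical copies in the genome, of which 5 had reads, 139 in all beside 2497 for HNRNPA1.

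**Figure D1:**
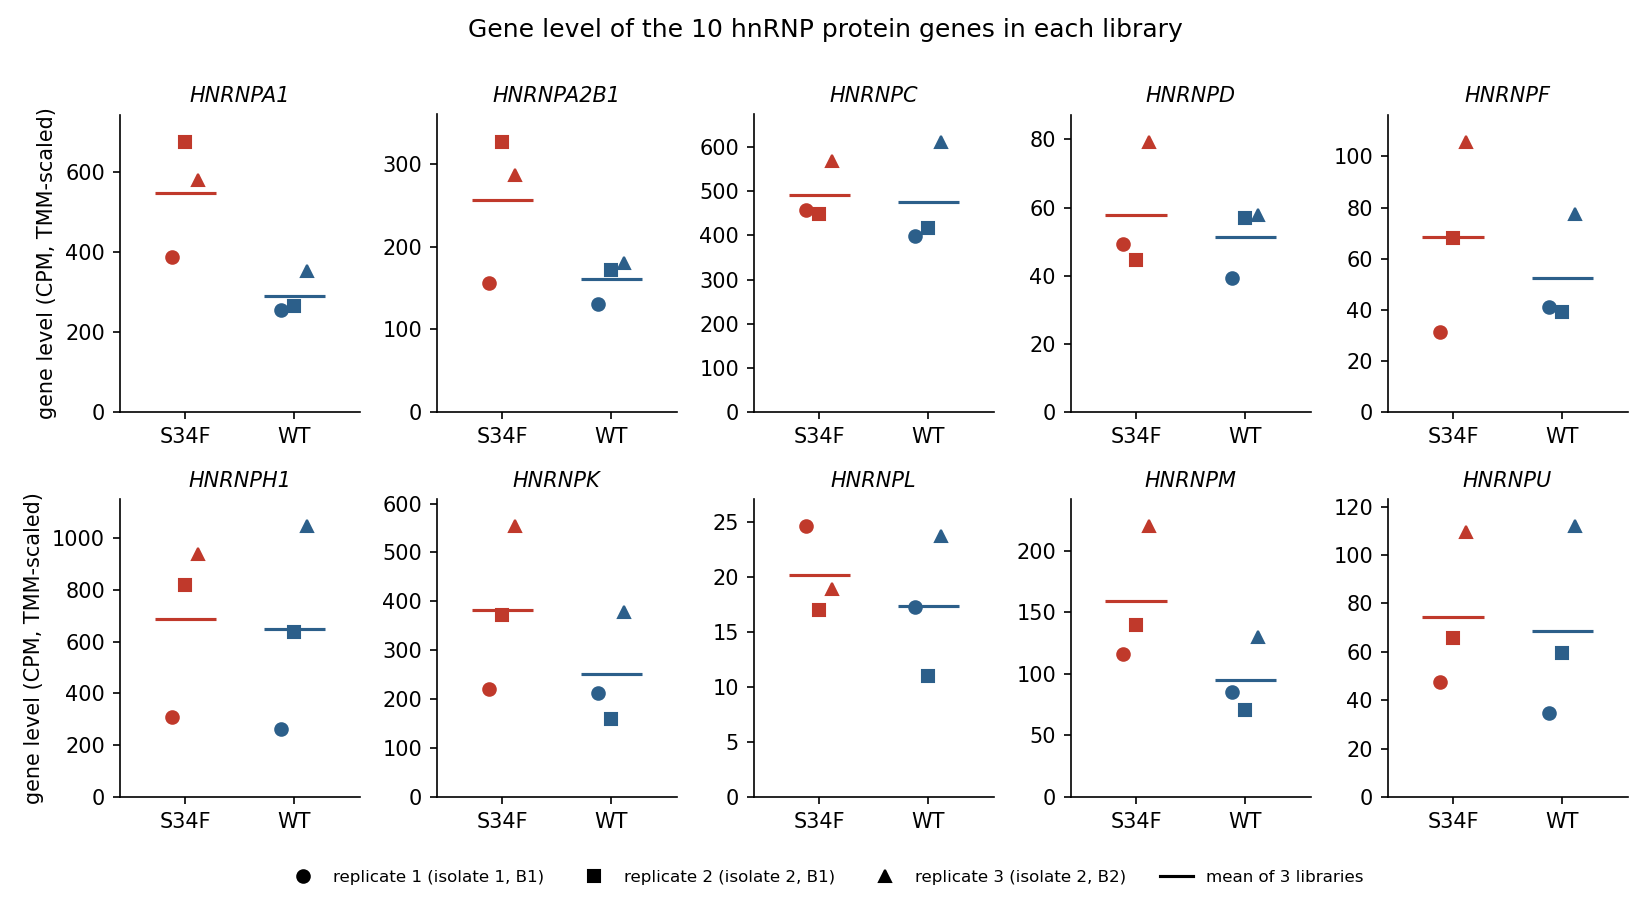
Gene level of each hnRNP gene in CPM (TMM-scaled, linear axes starting at 0), with S34F libraries on the left and WT libraries on the right of each panel; symbols mark the replicate and lines the mean of 3 libraries. The S34F libraries of HNRNPA1 span 388 to 675 CPM, above the highest WT value of 352 on this scaling but not on that over all genes, while HNRNPH1 is low in replicate 1 of both genotypes.

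HNRNPM, a protein known for regulating exons in epithelial and mesenchymal cells, measured 117, 140.2 and 220.1 CPM in S34F replicates 1, 2 and 3, against 85.2, 70.4 and 130.3 CPM in WT replicates 1, 2 and 3. In each replicate number the S34F library was the higher, but S34F replicate 1 lay below WT replicate 3. The log2 fold change was 0.73 (SE 0.26, 95% interval 0.17 to 1.29, edgeR adjusted p = 0.168), 0.71 in the B1 libraries alone, and 0.70 with an SE of 0.48 with isolate 2 summed. HNRNPK, a KH domain protein that binds C-rich RNA and DNA, measured 220.1, 372 and 554 CPM in S34F replicates 1, 2 and 3, against 212, 160.3 and 379 CPM in WT replicates 1, 2 and 3. Replicate 1 was close between the genotypes, and the B2 library was the highest of each genotype. The log2 fold change was 0.62 (95% interval -0.01 to 1.26, edgeR adjusted p = 0.303), and without S34F replicate 2 it was 0.37.

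The 6 others had intervals that reach well to both sides of 0. HNRNPC, which binds U-rich stretches and is known to compete with U2AF at cryptic sites, measured 458, 448 and 569 CPM in S34F replicates 1, 2 and 3, against 399, 417 and 612 CPM in WT replicates 1, 2 and 3. S34F was the higher at replicates 1 and 2 and the lower at replicate 3, and the log2 fold change was 0.06 (95% interval -0.53 to 0.66). With no filter it was -0.12, above the median of -0.16 under that scaling. HNRNPH1, which binds G runs, measured 307, 819.8 and 938 CPM in S34F replicates 1, 2 and 3, against 263, 637 and 1046 CPM in WT replicates 1, 2 and 3. The isolates differed more than the genotypes did, with replicate 2 over replicate 1 at 2.67 in S34F and 2.42 in WT cells. Its log2 fold change was 0.16 (95% interval -0.70 to 1.02). At its last exon a locus on the opposite strand held 2186 further reads, and smaller such loci lay at HNRNPA1 and HNRNPL; their part in these levels was not tested.

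HNRNPF, the close relative of HNRNPH1, measured 31.2, 68.0 and 106 CPM in S34F replicates 1, 2 and 3, against 41.1, 39 and 77.3 CPM in WT replicates 1, 2 and 3, and its log2 fold change was 0.35 (95% interval -0.33 to 1.02). Without S34F replicate 2 it was 0.074, and without S34F replicate 1 it was 0.60. HNRNPD, also known as AUF1 and a regulator of mRNA with AU-rich elements, measured 49.3, 44.6 and 79.3 CPM in S34F replicates 1, 2 and 3, against 39.3, 56.8 and 57.7 CPM in WT replicates 1, 2 and 3. Its log2 fold change was 0.16 (95% interval -0.48 to 0.80), with the groups interleaved. HNRNPU, which binds chromatin-associated RNA, measured 47.6, 65.8 and 109.6 CPM in S34F replicates 1, 2 and 3, against 34.6, 59.4 and 112 CPM in WT replicates 1, 2 and 3. Its values differed more between replicate numbers than between genotypes, and the log2 fold change was 0.16 (95% interval -0.49 to 0.81). HNRNPL, which binds CA repeats, had 125 reads in all libraries together. It measured 24.6, 17.0 and 18.9 CPM in S34F replicates 1, 2 and 3, against 17.3, 11 and 23.8 CPM in WT replicates 1, 2 and 3, with a log2 fold change of 0.19 (95% interval -0.63 to 1.02).

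At splice sites, comparing the exons of the hnRNP isoforms gave 96 alternative choices, and 86 had at least 10 informative reads in every library. None of 86 was called, at an adjusted p of 0.05 over 18146 events, of which 1.75% were called. limma on log odds called 0 of all 18146 events, so its 0 among the 86 says nothing about these genes. Unadjusted, 7 of 86 had p under 0.05 in edgeR, beside 9.83% of all tested events. Of the 86, 49 had a lesser form of at least 5% in either genotype: 29 cassette exons, 9 alternative 3′ splice sites, 7 alternative 5′ splice sites and 4 retained introns. Of the 29 cassette exons, 21 had a length that is a multiple of 3. In 4 of the 49 the S34F and WT libraries did not overlap, beside 16.6% of such events over all genes. Many of these choices overlap or share reads, and 5 shift a site by 6 bases or fewer, which nanopore base errors can blur.

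The choice with the smallest adjusted p was a 26-base exon of HNRNPC (chr14:21731470-21731495, minus strand). It was included in 77.7%, 76.2% and 81.6% of informative reads in S34F replicates 1, 2 and 3, against 72.5%, 72.0% and 74.1% in WT replicates 1, 2 and 3. All S34F libraries lay above all WT libraries, with at least 185 informative reads in each. The log2 odds ratio was 0.50 (95% interval 0.19 to 0.81, edgeR adjusted p = 0.0793), and 0.36 in the B1 libraries alone. The exon lies before the coding part of the transcript. In contrast to it, the 39-base stretch that separates the C1 and C2 forms was kept in 31.7%, 33.0% and 36.0% of reads in S34F replicates 1, 2 and 3, against 33.6%, 36.0% and 33.6% in WT replicates 1, 2 and 3. These ranges overlapped, and the log2 odds ratio was 0.01 (95% interval -0.26 to 0.28, edgeR adjusted p = 0.993).

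HNRNPK used the outer of its 2 alternative 3′ splice sites, which keeps the 60 bases, in 57.9%, 61.7% and 57.0% of reads in S34F replicates 1, 2 and 3, against 48.9%, 46.7% and 53.1% in WT replicates 1, 2 and 3. The inner site, the TAG shown above, was thus used less in every S34F library than in any WT library. The intron bases before the outer site were not read, so the 2 sites cannot be compared by sequence. Whether the mutation acts on this choice was not tested. The log2 odds ratio of the longer form was 0.41 (95% interval 0.12 to 0.71, edgeR adjusted p = 0.183), and 0.70 in the B1 libraries alone. A 16-base exon of HNRNPK (chr9:86585812-86585827) was included in 57.7%, 61.7% and 66.5% of reads in S34F replicates 1, 2 and 3, against 54.7%, 47.4% and 61.1% in WT replicates 1, 2 and 3. At each replicate number the S34F library was the higher while the ranges overlapped, and the log2 odds ratio was 0.39 (95% interval 0.08 to 0.69, edgeR adjusted p = 0.290). The isoforms of HNRNPK with a transcript ID hold this exon, and every isoform that skips it was without one. The 54-base exon of HNRNPM was included in 63.4%, 65.2% and 70.4% of reads in S34F replicates 1, 2 and 3, against 73.4%, 78.3% and 79.5% in WT replicates 1, 2 and 3. All S34F libraries lay below all WT libraries, with at least 66 informative reads each. The log2 odds ratio was -0.72 (95% interval -1.24 to -0.21, edgeR adjusted p = 0.186), and -0.75 in the B1 libraries alone. The other non-overlapping choice was a retained intron of HNRNPA1 of 98 bases, kept in 20.6%, 20% and 21.3% of reads in S34F replicates 1, 2 and 3, against 22.2%, 26.2% and 32.9% in WT replicates 1, 2 and 3. With as few as 34 informative reads, its log2 odds ratio was -0.59 (95% interval -1.44 to 0.26, edgeR adjusted p = 0.741). That share is set against reads that use a lesser 3′ splice site, 5 bases further in. Against reads of the main site, the same retained reads came to 3.35%, 2.41% and 2.89% in S34F replicates 1, 2 and 3, against 3.12%, 6.44% and 4.23% in WT replicates 1, 2 and 3, and these ranges overlapped.

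**Figure D2:**
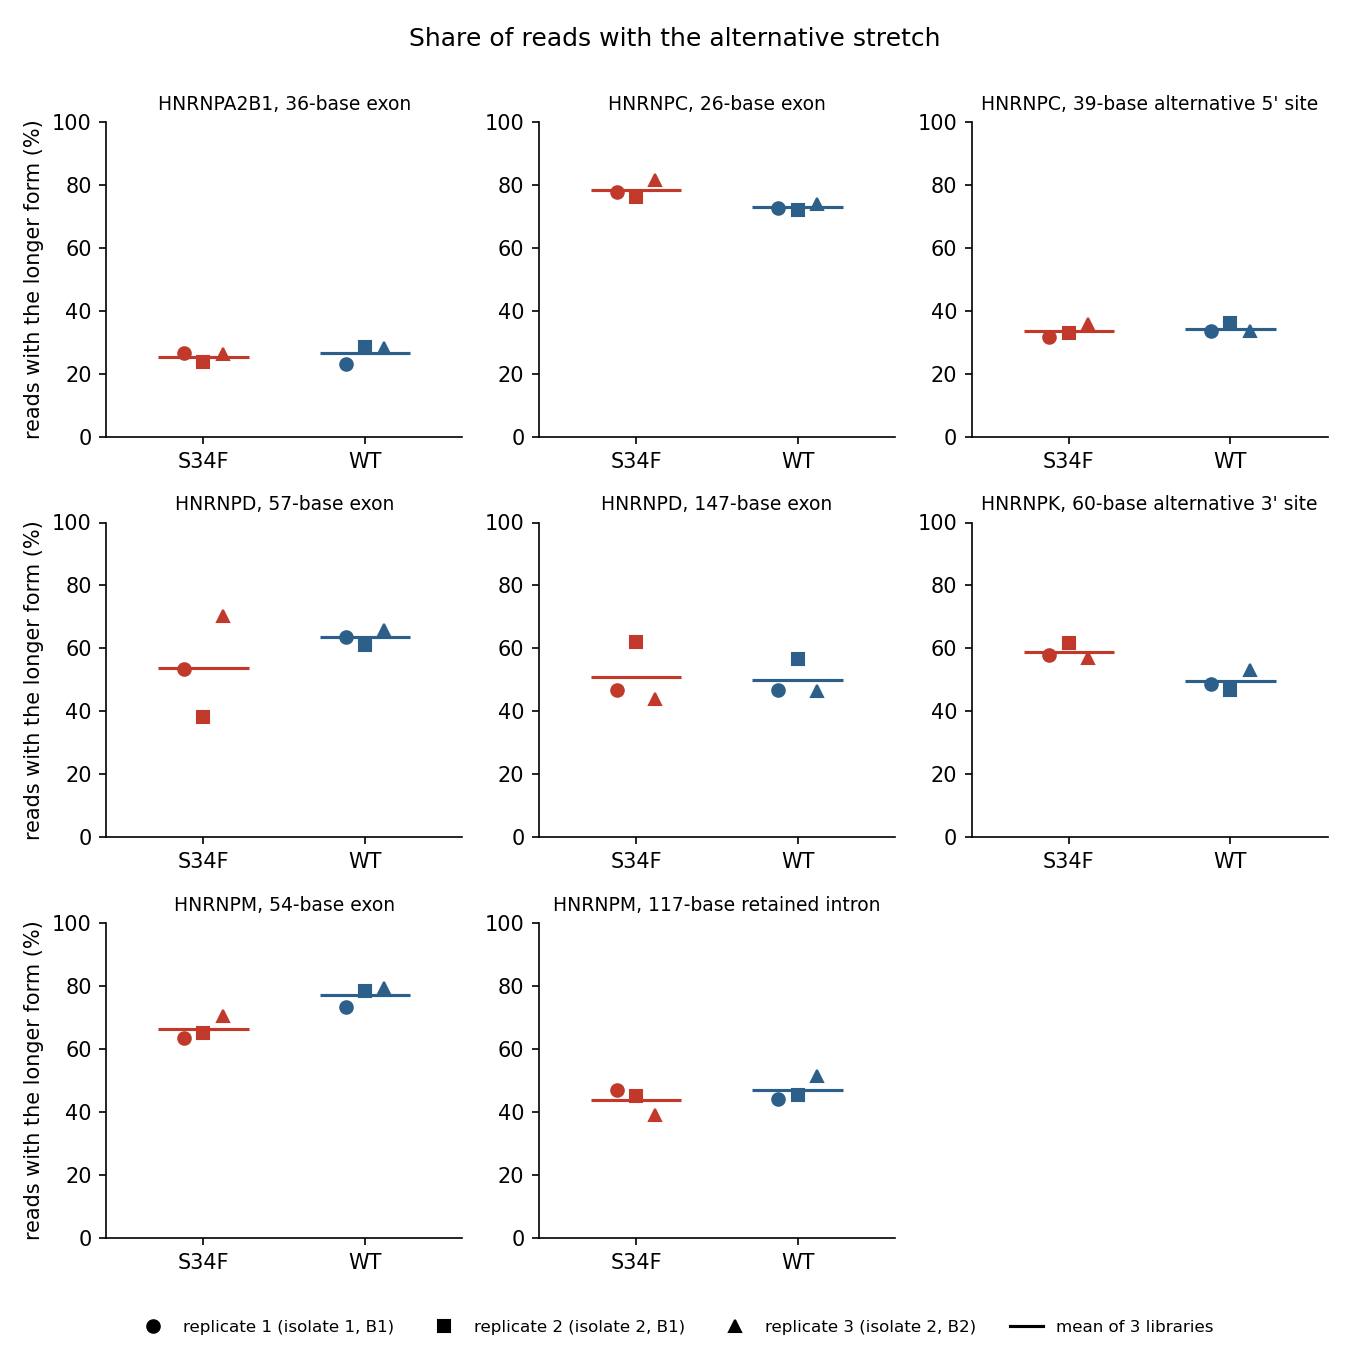
Percent of informative reads with the longer form of 8 alternative stretches (axes 0 to 100%), S34F libraries left and WT libraries right; symbols mark the replicate and lines the mean of 3 libraries. The genotypes are apart for the 26-base exon of HNRNPC, the 60-base site of HNRNPK and the 54-base exon of HNRNPM, none of them called, and overlap for the other 5.

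Other coding stretches shown above overlapped between genotypes. The 36-base exon of HNRNPA2B1 was included in 26.6%, 23.7% and 26.2% of reads in S34F replicates 1, 2 and 3, against 23.2%, 28.5% and 28.3% in WT replicates 1, 2 and 3. Its log2 odds ratio was -0.11 (95% interval -0.54 to 0.31). The 117 bases of HNRNPM were kept in 47.0%, 45.2% and 38.9% of reads in S34F replicates 1, 2 and 3, against 44.2%, 45.5% and 51.5% in WT replicates 1, 2 and 3, with a log2 odds ratio of -0.38 (95% interval -0.87 to 0.11).

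HNRNPD rested on as few as 21 reads in a library. Its 57-base exon was included in 53.3%, 38.1% and 70.2% of reads in S34F replicates 1, 2 and 3, against 63.6%, 61.2% and 66.0% in WT replicates 1, 2 and 3. The S34F libraries spread to both sides of the WT ones, and the log2 odds ratio was -0.28 (95% interval -1.03 to 0.46). Leaving out each library in turn gave log2 odds ratios of -0.90 to -0.028. The interval rests on a spread shared by choices of like abundance, not on that of this exon alone. The 147-base exon was included in 46.7%, 61.9% and 44.0% of reads in S34F replicates 1, 2 and 3, against 47.0%, 56.7% and 46.4% in WT replicates 1, 2 and 3. Replicate 2 was the highest in both genotypes, and the log2 odds ratio was -0.05 (95% interval -0.77 to 0.67).

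The 49 choices with a lesser form of at least 5% fell on 8 of the genes. HNRNPC held 15 of them, of which 14 overlapped, with log2 odds ratios of -0.54 to 0.72. HNRNPM held 9 with 8 overlapping (-0.72 to 0.56), and all 8 of HNRNPA2B1 overlapped (-0.45 to 0.50). HNRNPA1 held 6, of which 5 overlapped (-0.59 to 0.079). The 4 of HNRNPK, the 3 overlapping ones included, had log2 odds ratios of 0.29 to 0.41, both of HNRNPD -0.28 to -0.047, and the 1 of HNRNPU 0.26. HNRNPH1 held 4, and each overlapped. Its 139-base exon was included in 47.6%, 54.4% and 52.4% of reads in S34F replicates 1, 2 and 3, against 54.9%, 53.4% and 51.3% in WT replicates 1, 2 and 3. The log2 odds ratio was 0.00 (95% interval -0.22 to 0.22), among the narrowest intervals here.

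Because a read covers distant exons, pairs of choices could be followed together, and these shares are given as descriptions, picked after their values were seen. In HNRNPC, reads with the 26-base exon and without the 39-base stretch made up 59.6%, 57.8% and 57.3% in S34F replicates 1, 2 and 3, against 52.6%, 50.1% and 51.7% in WT replicates 1, 2 and 3. In HNRNPD, reads with the 57-base and without the 147-base exon made up 40%, 28.6% and 50% in S34F replicates 1, 2 and 3, against 39.4%, 34.3% and 44.3% in WT replicates 1, 2 and 3. All 4 combinations of the HNRNPD exons were read in every library. In HNRNPK, reads with both the 16-base exon and the 60-base stretch made up 36.2%, 40.7% and 39.5% in S34F replicates 1, 2 and 3, against 26.3%, 29.7% and 34.8% in WT replicates 1, 2 and 3. In HNRNPM, reads that lacked both the 117-base stretch and the 54-base exon made up 9.1%, 16.1% and 19.2% in S34F replicates 1, 2 and 3, against 10.9%, 10.6% and 7.5% in WT replicates 1, 2 and 3.

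**Figure D3:**
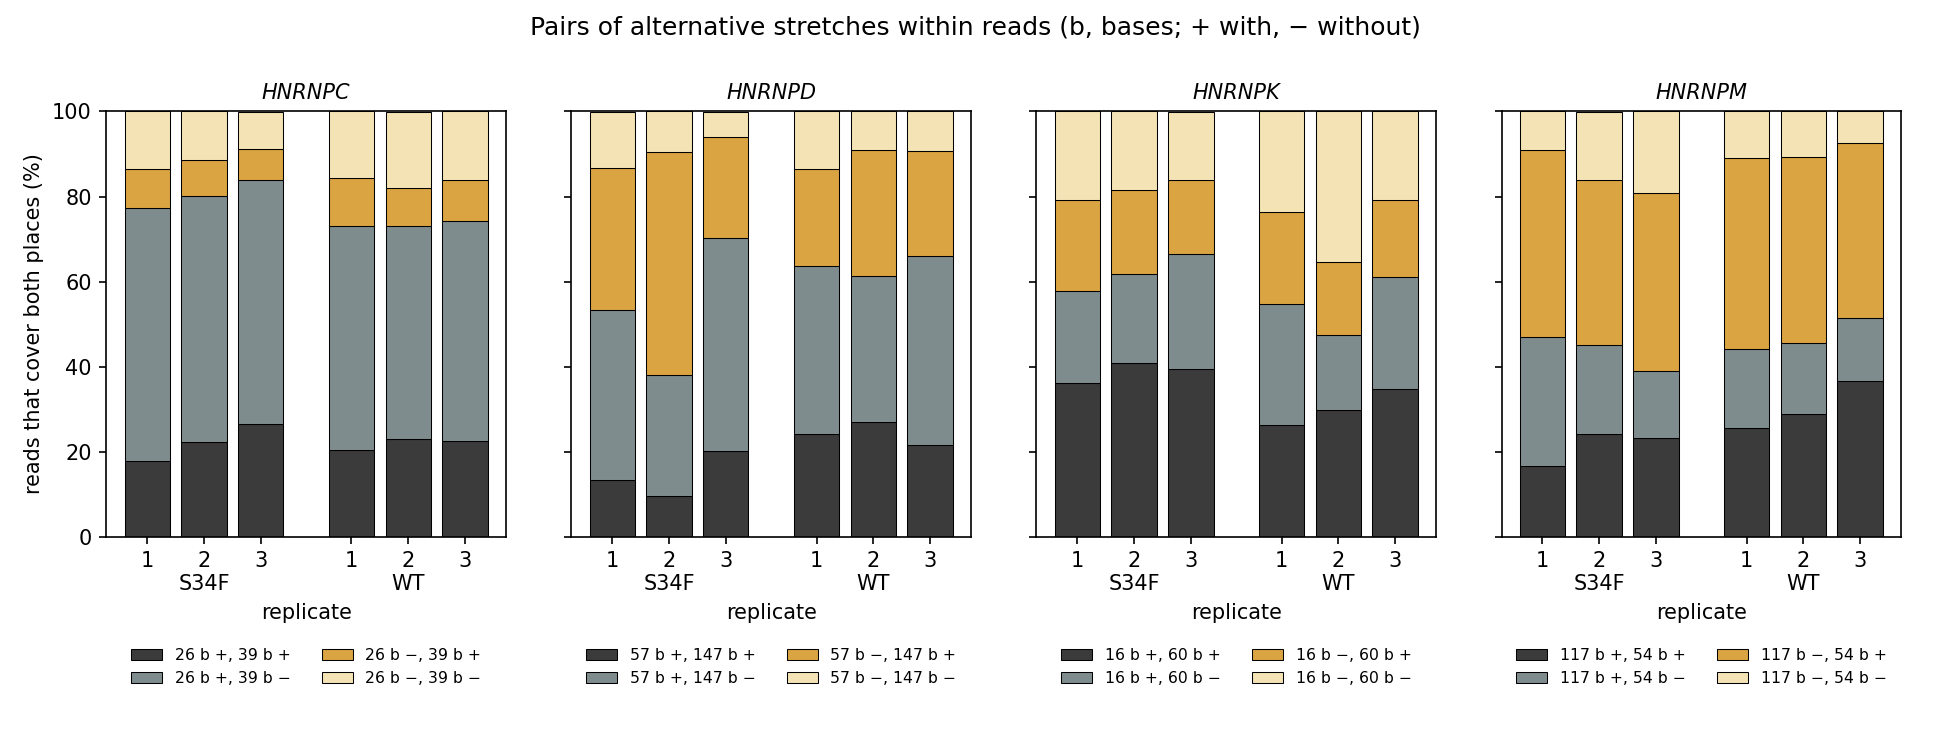
Stacked shares (%) of reads that cover both of a pair of alternative stretches in HNRNPC, HNRNPD, HNRNPK and HNRNPM, with the 3 S34F libraries left of the 3 WT libraries in each panel; colours mark reads with or without each stretch. The segment with the 26-base exon and without the 39-base stretch of HNRNPC spans 57.3% to 59.6% in S34F and 50.1% to 52.6% in WT libraries.

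The 10 genes had 174 isoforms, 40 of them under an annotated transcript ID, and 60 passed the filter on low counts. None of 60 was called by edgeR or DESeq2, beside 4.26% of 13961 isoforms called by edgeR, and 10 of 60 had an unadjusted p under 0.05, beside 17.0%. The main isoform of HNRNPA1, of 10 exons and 1692 bases, had 95, 144 and 262 reads in S34F replicates 1, 2 and 3, against 173, 104 and 215 reads in WT replicates 1, 2 and 3. It made up 40.3%, 45.3% and 42.7% of the gene's reads in S34F replicates 1, 2 and 3, against 40.5%, 33.3% and 36.4% in WT replicates 1, 2 and 3, and its log2 fold change was 1.12 (edgeR adjusted p = 0.0728). The main isoform of HNRNPK, of 17 exons with the 60-base stretch, made up 33.6%, 38.3% and 37.2% in S34F replicates 1, 2 and 3, against 23.3%, 24.9% and 32.8% in WT replicates 1, 2 and 3. Its log2 fold change was 1.02 (edgeR adjusted p = 0.114). An HNRNPM isoform that lacks both the 117-base stretch and the 54-base exon had 6, 10 and 38 reads in S34F replicates 1, 2 and 3, against 14, 7 and 15 reads in WT replicates 1, 2 and 3, with a log2 fold change of 1.41 (edgeR adjusted p = 0.0731). Isoforms with a mean share of at least 5% in either genotype numbered 60 in all, of which 41 were tested. There were 11 in HNRNPM, 9 in HNRNPA2B1, 7 each in HNRNPF and HNRNPU, 6 each in HNRNPA1 and HNRNPD, 4 each in HNRNPC, HNRNPH1 and HNRNPK, and 2 in HNRNPL. The highest mean share was 64.4% in S34F and 76.0% in WT libraries for an isoform of HNRNPL, and the lowest of the 10 genes was HNRNPA2B1, with 18.0% in S34F and 14.9% in WT libraries. Fitted log2 fold changes spanned -0.65 to 0.24 in HNRNPC and 0.082 to 1.09 in HNRNPA2B1. Without S34F replicate 1, 4 isoforms were called: these 2 of HNRNPM and HNRNPK, the main isoform of HNRNPA1 and a shorter one of HNRNPA1, beside 3.17% of 18743 isoforms tested. The S34F libraries left in that fit were both of isolate 2.

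Isoform usage, the change of a gene's isoforms relative to each other, was called for none of the 9 genes tested, beside 0.527% of 2276 genes called. The smallest unadjusted p was 0.209, while 6.2% of all genes tested had one under 0.05. HNRNPL had too few reads. The 3′ end choice was called for none of 7 genes tested, beside 1.47% of 2386 genes called. None of the 7 had an unadjusted p under 0.05, beside 8.55% of all genes tested. In HNRNPA1 the 2 most read ends lay 333 bases apart, and the distal end took 70.1%, 70.7% and 67.1% of reads in S34F replicates 1, 2 and 3, against 70.2%, 69.3% and 67.6% in WT replicates 1, 2 and 3. Isoform models differed in how far they matched the annotation: HNRNPM had no reads in isoforms with a transcript ID in any library, while HNRNPC had 61.6% to 69.3% in S34F and 58.3% to 70.1% in WT libraries. HNRNPH1 reads were spread over 4 isoforms of like size, with the annotated one at 22.5%, 27.2% and 24.0% in S34F replicates 1, 2 and 3, against 25.6%, 26.6% and 23.8% in WT replicates 1, 2 and 3.

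Beyond these 10, a list of 24 other hnRNP-type RNA-binding protein genes had 20 with reads and 17 tested. None of 17 was called, beside 3.24% of all tested genes, and 1 had an unadjusted p under 0.05 in edgeR, beside 17.0%. Of the 17, 13 had a log2 fold change above 0, beside 51.6% of all tested genes. Their median was 0.18, beside 0.02. HNRNPR, a relative of SYNCRIP, had 18.1, 70.1 and 85.0 CPM in S34F replicates 1, 2 and 3, against 17.9, 12.7 and 63.6 CPM in WT replicates 1, 2 and 3. Its log2 fold change was 1.01 (95% interval 0.11 to 1.92, edgeR adjusted p = 0.236), without S34F replicate 1 it was 1.26 and called, and without S34F replicate 2 it was 0.33 (edgeR adjusted p = 0.675). In the fit without S34F replicate 1, the S34F libraries were both of isolate 2. HNRNPUL1 (0.68, edgeR adjusted p = 0.424), HNRNPLL (-0.63, edgeR adjusted p = 0.444) and the cold-inducible CIRBP (-0.31, edgeR adjusted p = 0.595) followed by p. The genes whose levels were most like the mean of the 10 over 6 libraries, among 1329 with at least 50 reads in every library, were B2M, PTHLH and FN1, with Pearson r of 0.997, 0.993 and 0.977 as a description.

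**Figure D4:**
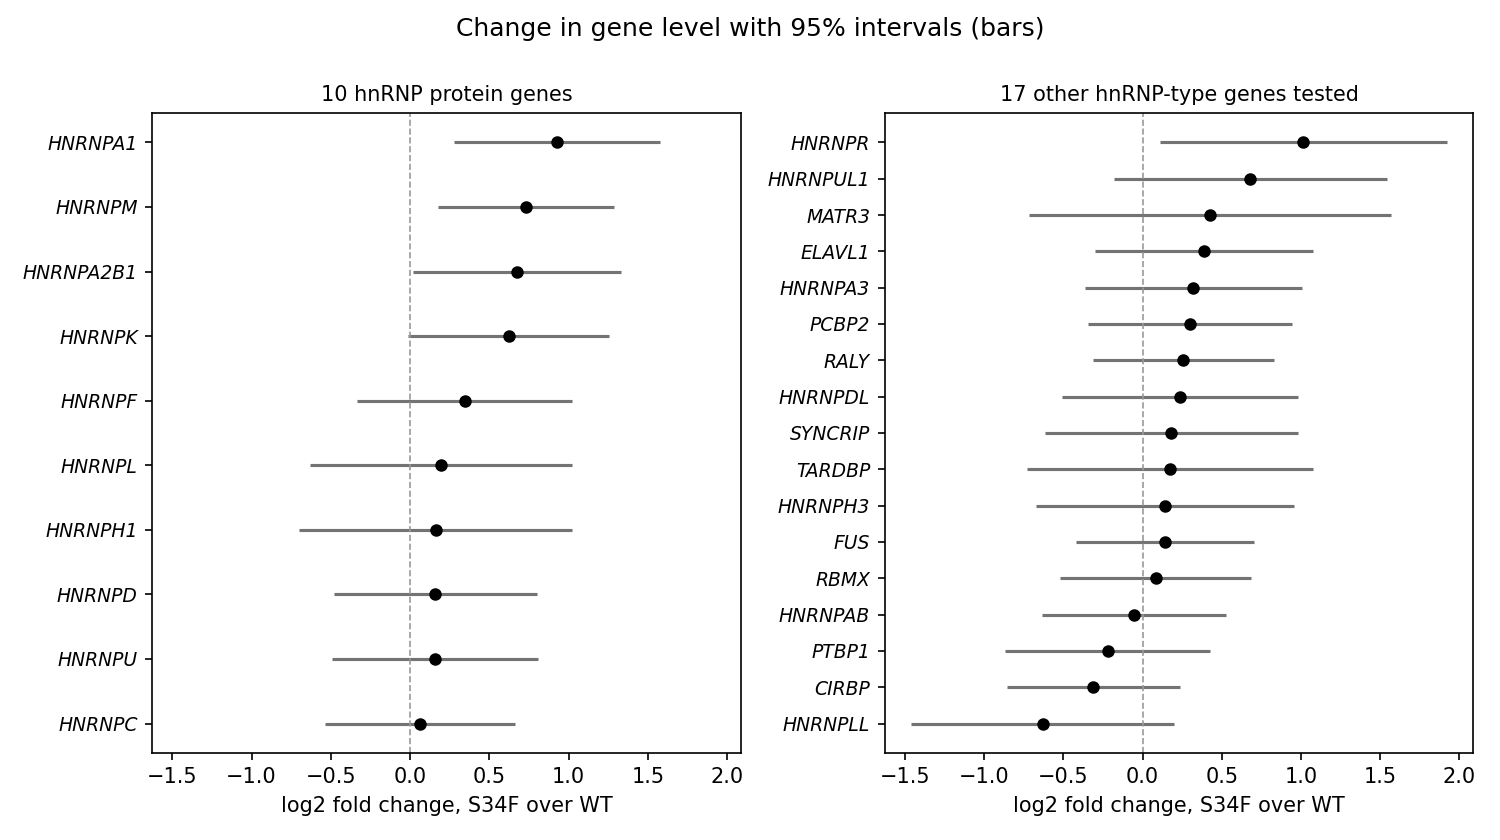
Log2 fold change of gene level, S34F over WT, with 95% intervals from the edgeR fit, for the 10 hnRNP genes (left) and the 17 other hnRNP-type genes tested (right); the dashed line marks 0. HNRNPA1, HNRNPM and HNRNPA2B1 on the left and HNRNPR on the right have intervals above 0, and no gene shown was called after adjustment.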

How the data were processed

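Poly(A) RNA was reverse transcribed by Smart-Seq2 and read by nanopore 1D sequencing, per the labels' protocols. The authors deposited raw read counts per isoform for 6 libraries, with the isoform models. Positions are in hg19, the build that the submitters' processing notes name. No source used here states the aligner, the version of the isoform caller, the filters or whether strand was used. Counts were summed per gene. CPM use the library totals and TMM factors of the tested genes, as the fit does; they were first scaled by TMM factors over all genes, which lowers S34F against WT, and were changed, after results were known, to the scale of the fold changes beside them. For genes and isoforms, the quasi-likelihood test of edgeR 4.0.16 (R 4.3.3) was run on counts with TMM, filterByExpr (10 reads, 15 in total), a B1/B2 term and Benjamini-Hochberg adjustment over all features. Isoform usage was tested with diffSpliceDGE and Simes p-values. Events from exon chains, and the 2 most read 3′ ends merged within 100 bases, were tested in an edgeR quasi-likelihood model of the reads with and without a form, with a term for each library.

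The dispersion in that event model was changed after its first results were known. The first version, with an abundance-trended dispersion, recovered no planted change in data simulated with either of 2 spreads, and its p-values were far too large for deep events with shares in the middle range. On the real data it called 223 of 18146 events, so the simulated data were unlike the real ones in this respect. A first remedy, easing the simulation until that version recovered part of the larger changes, was dropped. With the negative-binomial dispersion set to 0, so that the quasi-likelihood dispersion carries the spread, most of the larger planted changes in such events were recovered, fewer of the smaller ones, and p-values were near their nominal rate, somewhat too small at the wider spread. The change was chosen on simulated data, and no hnRNP event was called under either version. Its prior degrees of freedom were infinite, so events of like abundance share a spread. limma 3.58.1 on log odds, an alternative, recovered no planted change.

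Other alternatives used DESeq2 1.42.0 and limma-voom. The reported fits had a B1/B2 term and did not pair libraries by replicate number. Only an alternative, the replicate block, paired them in that way. Same-numbered S34F and WT libraries deviated from their group means with r of 0.49, 0.16 and 0.85 over 7033 genes. S34F replicate 1 went further with WT replicate 2 (0.54) and S34F replicate 2 with WT replicate 1 (0.33), so that the data set B2 apart from B1 and do not tell numbers 1 and 2 apart. The 10 genes and the lists were chosen with earlier results of these data known. All 10 genes are named, with isoforms and choices of at least 5% share (a few in full, picked after their values were seen, the others by counts and ranges per gene), called features, and of the other hnRNP-type genes the 4 with the smallest p. Counting and plots used Python 3.11.15, pandas 2.3.3 and matplotlib 3.10.9. No genome of the build was used.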

Additional observations from a re-analysis of the deposited data

Results flagged for a closer look

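Reads outside the comparisons lay on the opposite strand at the last exons of 3 of the genes, each at a locus of 1 exon without a gene ID. At HNRNPH1 (chr5:179041179-179041878) there were 2186 such reads, with 90, 175 and 471 in S34F replicates 1, 2 and 3, and 188, 326 and 936 in WT replicates 1, 2 and 3. They came to 45.3% to 48.1% of the gene's own reads in S34F and 42.6% to 53.2% in WT libraries. At HNRNPA1 (chr12:54678415-54679030) there were 162, which came to 3.14% to 8.47% of the gene's own reads in S34F and 5.58% to 14.4% in WT libraries. At HNRNPL (chr19:39326343-39327275) there were 59, with 0%, 12.5% and 90% of the gene's own reads in S34F replicates 1, 2 and 3, and 6.90%, 92.3% and 65% in WT replicates 1, 2 and 3. No source used here says whether the authors' counting used strand, so reads of these loci and of the genes cannot be told apart with certainty, and the part of these loci in the gene levels was not tested.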

How the results depend on the processing

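Counts of called hnRNP genes, isoforms, isoform usage, splicing events, 3′ ends and other hnRNP-type genes were 0 in 83 of 86 recounts under other settings. The exceptions all came without S34F replicate 1, so that leaving out each library in turn gave 0 to 2 genes, 0 to 4 isoforms and 0 to 1 other hnRNP-type genes. The S34F libraries left in that fit were both of isolate 2. The cause of the exceptions was not tested. Over all genes, 519 of 8784 were called without S34F replicate 1 and 655 of 8595 without S34F replicate 2. With all libraries, 228 of 7033 were called. Some settings called few or no features at all, so a 0 for the hnRNP features there says little. With isolate 2 summed, 0 of 8614 genes were called. Without the B1/B2 term, 2 of 7033 genes and 3 of 13961 isoforms were called. The fit with the replicate block called 0 hnRNP genes, isoforms, events and 3′ ends. Over all features it called 187 genes beside 228, 553 isoforms beside 595 and 249 events beside 317. The trended dispersion was the first version of the event fit. The event fit reported here, with that dispersion set to 0, and the bias-adjusted fit were chosen after the first results were known. The trended and the bias-adjusted fit called 223 and 134 of all events beside 317, while limma on log odds called 0 of 18146.

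Of 443 single values, 32 changed sign. Leaving out each library gave log2 fold changes of -0.0010 to 0.15 for HNRNPC, -0.053 to 0.33 for HNRNPD, -0.38 to 0.52 for HNRNPH1, -0.089 to 0.55 for HNRNPL and -0.073 to 0.33 for HNRNPU. It gave log2 odds ratios of -0.15 to 0.071 for the HNRNPC 39-base stretch, -0.19 to 0.070 for the HNRNPD 147-base exon, -0.10 to 0.049 for the HNRNPH1 139-base exon and -0.50 to 0.086 for the HNRNPM 117-base stretch. Without changing sign, it gave 0.37 to 0.79 for HNRNPK, 0.074 to 0.60 for HNRNPF, 0.33 to 1.47 for HNRNPR, 0.37 to 1.02 for HNRNPUL1, 0.32 to 0.70 for the HNRNPK 60-base site, -0.20 to -0.037 for the HNRNPA2B1 36-base exon, -0.90 to -0.028 for the HNRNPD 57-base exon and -0.68 to -0.34 for the HNRNPA1 98-base intron. With no filter the values were -0.12 for HNRNPC, -0.021 for HNRNPD, -0.019 for HNRNPH1 and -0.021 for HNRNPU. Under that setting the median was -0.16 over the 7033 genes of the main fit. With 10 reads in every library HNRNPC came to -0.011. In the B1 libraries alone HNRNPD came to -0.038. The HNRNPC stretch came to -0.15 there, the HNRNPD exon to 0.061 and the HNRNPM stretch to 0.086. On log odds with limma the HNRNPC stretch came to -0.053 and the HNRNPD exon to 0.045, the trended dispersion gave -0.022 for the HNRNPC stretch, and annotated isoforms only gave 0.21 for the HNRNPD exon. Depth was as low as 8 reads in a library for HNRNPL and 21 for HNRNPD.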
